A study of Mus musculus with 5 samples.

Results

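The genes described here serve the cytoskeleton of neurons and the growth of axons. They are the neurofilament genes Nefl, Nefm and Ina, the related filament gene Prph, the stathmins Stmn2 and Stmn3, the microtubule genes Dcx, Tubb3 and Map2, and the growth cone gene Gap43. They were chosen by name, and every probe set annotated to 1 of them alone was kept. A probe set is the group of short probes from which an Affymetrix array derives 1 signal. This gave 21 probe sets of 10 genes, out of 20380 probe sets of 12393 genes on the array.

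The samples were 5 tissue isolates of wild-type mouse embryos at stage E10.5, each holding the pharyngeal arches and, by its label, second heart field, the source of cells added to both ends of the early heart tube. The mice carried a 129P2/OlaHsd background that had been crossed back to C57BL/6 over 2 generations. There was 1 group and no control, mutant or other tissue. From each isolate 10 ng of total RNA was amplified and hybridised to a mouse genome 430A array. The labels call the isolates individual but do not say whether litters differed, so p-values cannot speak beyond these 5 samples. They draw on the spread between these samples and on variances pooled over many probe sets.

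Neurons are born when progenitors leave the cell cycle, and they then switch on a shared set of structural genes. Neurofilaments, which are assembled from light, medium and internexin subunits, fill and widen the axon. Stathmins bind free tubulin and destabilise microtubule ends, doublecortin and MAP2 bind and stabilise microtubules, and GAP-43 acts under the membrane of the growth cone. At this stage cranial ganglia and hindbrain motor neurons send their first axons into the arches, while most arch cells are mesenchyme and epithelium. A signal in whole tissue cannot tell fewer neurons from less RNA in each neuron.

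Detection was judged against a background level, the 95th percentile of signal on the same array over 220 probe sets of families with narrow use, such as odorant and taste receptors, hair keratin-associated proteins, defensins, sperm, milk and pancreatic proteins and lymphocyte receptors. This level was a signal of 17.6, 16.5, 19.6, 22.8 and 23.4 in replicates 1 to 5. A stricter level, from a wider name pattern that also takes in the widely expressed casein kinases and the interferon receptors, was 75.5, 99.5, 99.2, 118 and 103. The excess of a probe set is its mean log2 signal minus that of the level, given with the SE. Checked against defining markers, the tissue gave signal for Isl1, a LIM homeodomain factor of cardiac progenitors and of neurons (1387 ± 223, SD, n = 5), and for Pax3, a factor of neural crest and somites (683 ± 86.4), whereas the cardiac factor Nkx2-5 stood at 5.09 ± 3.35 and was not above background. Replicate 4 differed from the others in sex-linked genes. Xist, the RNA of the silenced X in females, gave 916 there and 1.28 to 26.3 elsewhere, and the Y-linked Eif2s3y gave 20.1 there and 769 to 968 elsewhere. Any difference of replicate 4 from the rest and the sex of that sample cannot be told apart.

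Of the 10 genes, 8 were above background, against 53.6% of all genes. At the stricter level the same count, 8, was above, against 28.8% of all genes. By probe set, 13 of 21 were above background, against 49.8% of all probe sets, and 11 of 21 at the stricter level, against 25.1%. Nefl, Nefm, Ina, Stmn2, Stmn3, Dcx, Tubb3 and Gap43 were the detected genes, and Prph and Map2 were not detected with any of their probe sets. The median excess over the filament genes was 3.82, and over the pair of stathmins 5.69, against 0.83 over all genes, each gene taken at its best probe set.

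**Figure D1:**
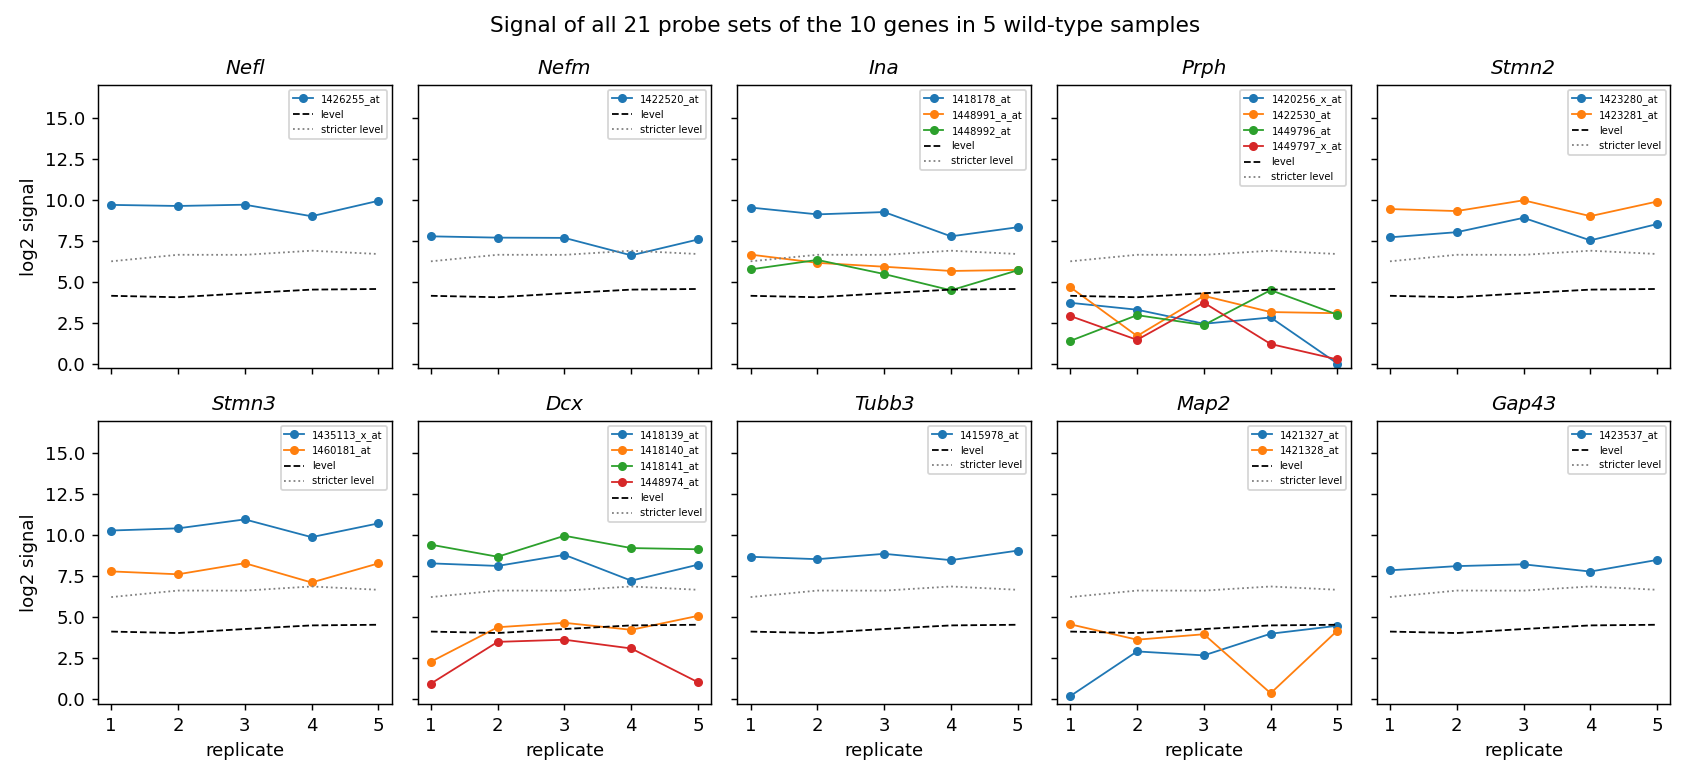
Log2 signal (y axis, floored at a signal of 1) of every probe set of the 10 genes in replicates 1 to 5 (x axis); lines only join the points of a probe set. The dashed line is the background level and the dotted line the stricter level; Nefl, Stmn2, Stmn3, Tubb3 and Gap43 lie above both in every sample, and all probe sets of Prph and Map2 lie at or under the dashed line in most samples.

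Promoter windows are printed as a description of the genes. Whether they bear on the low signal in replicate 4, described further on, was not tested. No window was available for Nefl, Nefm, Stmn2 or Gap43. RefSeq windows of 300 bases (250 before to 50 after the annotated start, build GRCm38.p6) were matched for 6 of the 10 genes, namely Ina, Stmn3, Tubb3, Dcx, Prph and Map2. Capitals mark matches, on either strand, to the TATA box TATAAA, the E-box CANNTG that basic helix-loop-helix factors bind, the GC box GGGCGG, and short cores of the left (CAGCACC) and right (GGACAG) parts of the RE1 element. RE1 is the site of the repressor REST, which silences neuronal genes outside neurons. The windows of 4 detected genes and of Prph, which was not detected, are chr19:47014431-47014730 on the plus strand for Ina, chr2:181314451-181314750 on the minus strand for Stmn3, chr8:123411303-123411602 on the plus strand for Tubb3, chrX:143933170-143933469 on the minus strand for Dcx (the first of its windows) and chr15:99054924-99055223 on the plus strand for Prph.
Ina: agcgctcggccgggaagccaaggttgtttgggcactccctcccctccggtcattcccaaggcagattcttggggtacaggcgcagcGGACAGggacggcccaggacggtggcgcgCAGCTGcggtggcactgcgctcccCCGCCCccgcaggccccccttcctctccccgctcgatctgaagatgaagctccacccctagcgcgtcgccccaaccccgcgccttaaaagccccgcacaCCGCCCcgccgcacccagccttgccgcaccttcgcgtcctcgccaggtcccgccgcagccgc
Stmn3: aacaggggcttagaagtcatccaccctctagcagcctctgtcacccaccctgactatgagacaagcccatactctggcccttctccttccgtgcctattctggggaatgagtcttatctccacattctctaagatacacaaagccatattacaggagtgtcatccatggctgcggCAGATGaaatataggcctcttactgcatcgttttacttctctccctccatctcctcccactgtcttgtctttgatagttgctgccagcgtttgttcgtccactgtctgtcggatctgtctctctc
Tubb3: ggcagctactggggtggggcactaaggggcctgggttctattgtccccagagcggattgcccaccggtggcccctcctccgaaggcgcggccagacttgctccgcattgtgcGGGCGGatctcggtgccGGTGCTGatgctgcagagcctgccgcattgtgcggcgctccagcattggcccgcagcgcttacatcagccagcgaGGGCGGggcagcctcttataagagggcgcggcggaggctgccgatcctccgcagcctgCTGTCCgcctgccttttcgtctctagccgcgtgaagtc
Dcx: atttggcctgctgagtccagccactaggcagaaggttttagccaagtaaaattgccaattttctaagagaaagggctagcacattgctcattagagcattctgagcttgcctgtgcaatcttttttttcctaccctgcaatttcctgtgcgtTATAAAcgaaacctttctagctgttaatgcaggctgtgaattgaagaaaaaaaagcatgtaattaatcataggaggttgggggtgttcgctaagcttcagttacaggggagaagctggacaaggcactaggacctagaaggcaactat
Prph: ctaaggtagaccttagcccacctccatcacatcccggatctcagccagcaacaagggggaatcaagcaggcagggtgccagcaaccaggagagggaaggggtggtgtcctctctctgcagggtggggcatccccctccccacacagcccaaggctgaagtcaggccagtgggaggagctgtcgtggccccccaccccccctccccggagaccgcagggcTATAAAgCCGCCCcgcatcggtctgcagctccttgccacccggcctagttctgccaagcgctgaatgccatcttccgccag

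The Ina and Tubb3 windows were rich in G and C (71.7% and 67.3%, against a median of 52.7% over 32851 windows) and held 2 GC boxes each, a motif found in 35.7% of all windows. The windows of the undetected genes were rich in G and C too, at 77.7% with 5 GC boxes in Map2 and 64.7% with 1 GC box in Prph. The Ina and Tubb3 windows held no TATAAA. The Stmn3 window was 49.7% G and C and held 1 E-box, CAGATG, at position -75 from the start. The printed Dcx window was 43.0% G and C and held TATAAA at position -98. In the other Dcx window, which has a different start, the same TATAAA lay at position -193. The Prph window held TATAAA at position -31. TATAAA lay in 13.6% of all windows and an E-box in 72.3%. A right RE1 core lay in the windows of Ina, Tubb3 and Map2 (22.2% of all windows) and a left core in that of Tubb3 (7.14%). In Tubb3 the cores began at offsets of -121 and 12 bases from the annotated start base. These matches are descriptions of letters and name no bound factor.

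The neurofilament genes were detected in every sample. Nefl encodes the light subunit, on which the filament is built, and gave signals of 821, 784, 827, 508 and 975 in replicates 1 to 5. Its excess over background was 5.28 ± 0.16 (limma, adjusted p = 4.64e-21). It was lowest in replicate 4 and within a narrow range in replicates 1 to 3. Nefm, the medium subunit, lies near Nefl on chromosome 14, with 1 annotated gene between them. Nefm gave 217, 205, 203 and 190 in replicates 1, 2, 3 and 5, and 97.1 in replicate 4. The excess of Nefm was 3.15 ± 0.20 (limma, adjusted p = 3.49e-14), and in replicate 4 its signal lay under the stricter level of 118. The other samples all lay well above both levels.

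Ina encodes alpha-internexin, a neurofilament subunit of early neurons, and had 3 probe sets. The probe set 1418178_at gave 734, 550, 606, 217 and 319 in replicates 1 to 5, an excess of 4.48 ± 0.28 (limma, adjusted p = 1.41e-08). It was low in both replicates 4 and 5, and its highest signal was 3.38 times its lowest. The probe set 1448991_a_at gave 100.2, 70.7, 60.0, 50.2 and 52.4, again with its lowest values in replicates 4 and 5. The probe set 1448992_at gave 53.6, 80.1, 44.1, 22.2 and 51.7, with replicate 4 lowest and replicate 5 close to replicates 1 and 3. All 3 probe sets passed at the background level and only 1418178_at at the stricter one, so the low value in replicate 4 was shared by the probe sets and that in replicate 5 by only 2 of them.

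Prph encodes peripherin, an intermediate filament of peripheral sensory, autonomic and motor neurons. None of its 4 probe sets was above background. The probe set with the highest mean, 1422530_at, gave 25.3, 3.21, 17.5, 8.83 and 8.40, above the level only in replicate 1 (excess -0.97 ± 0.48, limma, adjusted p = 1). The other probe sets had mean signals of 5.35 to 9.13 and lay above the level in 0 of 5 samples. Nefh, the heavy neurofilament subunit that appears late in axon maturation, was likewise not above background (6.06 ± 3.54). Among the 5 measured other intermediate filament genes 2 were detected, against 53.6% of all genes (median excess -0.62, against 0.83 over all genes). They were the progenitor filament nestin, Nes (169 ± 36.5), and vimentin, Vim (4742 ± 723), which mesenchyme carries too. Des and Gfap, of muscle and glia, were not detected. A probe set without signal may also bind its transcript poorly, so no absence follows.

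**Figure D2:**
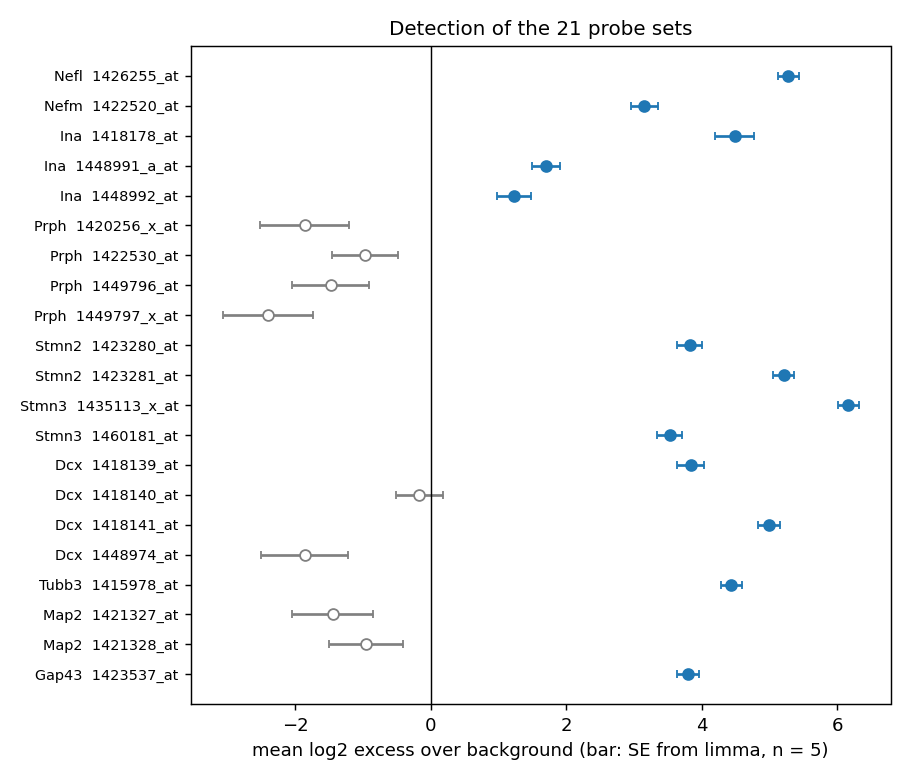
Mean excess over background (x axis, log2 units, bars are the SE from limma, n = 5) for each of the 21 probe sets (rows). Filled points are the 13 probe sets above background; open points are the 8 that were not, all 4 of Prph, both of Map2 and 2 of the 4 of Dcx.

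Both stathmins were detected with all their probe sets. Stmn2, also known as SCG10, is a stathmin of neurons that gathers in growth cones. Its probe set 1423281_at gave 688, 632, 997, 510 and 946 in replicates 1 to 5 (excess 5.21 ± 0.16, limma, adjusted p = 5.49e-21). The second, 1423280_at, gave 208, 259, 475, 183 and 365. In both, replicate 3 was highest, replicate 5 second and replicate 4 lowest.

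Stmn3, or SCLIP, is another neuronal stathmin. The probe set 1435113_x_at, whose suffix marks probes that can bind related transcripts, gave 1261, 1382, 2018, 952 and 1705 (excess 6.16 ± 0.15, limma, adjusted p = 6.21e-23). The probe set 1460181_at, with a plain suffix, gave 224, 198, 317, 140.0 and 314. The order at the ends was that of Stmn2, with replicate 3 highest and replicate 4 lowest. Of the other measured stathmins, Stmn1, which dividing cells use, was detected (8231 ± 1530), and Stmn4 was not (26.9 ± 13.6). Both were lowest in replicate 4 too, with deviations from the mean of the 5 samples of -0.49 in Stmn1 and -1.03 in Stmn4 on the log2 scale. The Stmn4 signal there was 11.7, under the level of 22.8.

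Dcx encodes doublecortin, a microtubule protein of newborn and migrating neurons, and lies on the X chromosome. It had 4 probe sets, and 2 were above background. The probe set 1418141_at gave 692, 416, 1010.0, 600.04 and 571 (excess 4.99 ± 0.16, limma, adjusted p = 3.09e-20), with replicate 2 lowest. The probe set 1418139_at gave 314, 282, 451, 151 and 297 (excess 3.84 ± 0.20, limma, adjusted p = 1.75e-14), with replicate 4 lowest. Replicate 3 was highest in both. They differed in replicate 4, which deviated from the mean of the 5 samples by -0.90 log2 units in 1418139_at and by -0.07 in 1418141_at, so the place of Dcx in that sample rests on the choice of probe set. The other 2, 1418140_at (20.9 ± 10.7) and 1448974_at (7.28 ± 5.02), were not above background.

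Tubb3 encodes class III beta-tubulin, the isotype by which neurons are commonly stained. It gave 416, 375, 471, 360 and 539 with its 1 probe set (excess 4.43 ± 0.15, limma, adjusted p = 8.35e-20). Its spread, an SD of 0.24 log2 units, was the smallest of the 8 detected genes, and replicates 2 and 4 were nearly level at the low end. Map2, a microtubule protein of dendrites, had 2 probe sets and neither was above background. The probe set 1421328_at gave 23.9, 12.5, 15.7, 1.29 and 18.3, and 1421327_at gave 1.15, 7.58, 6.41, 16.04 and 22.5. Each lay above the level in at most 1 sample, and they did not share an order.

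Gap43 encodes the growth-associated protein of extending axons. It gave 234, 280, 302, 222 and 363 (excess 3.80 ± 0.16, limma, adjusted p = 8.86e-18). Replicate 5 was highest and replicates 1 and 4 were lowest. The highest signal was 1.64 times the lowest, a smaller ratio than in Nefl (1.92), Stmn2 (1.96 for 1423281_at) or Stmn3 (2.12 for 1435113_x_at).

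Across the samples most of the detected genes shared a low signal in replicate 4, and they differed elsewhere. Each gene was taken at the probe set with its highest mean and centred on its mean log2 signal over the 5 samples. The mean of the 8 genes then deviated by 0.09, -0.06, 0.34, -0.52 and 0.15 in replicates 1 to 5, against 0.03, 0.01, -0.05, -0.03 and 0.04 for the 7365 genes with a mean above the level. Of the 8 genes, 7 had their lowest signal in replicate 4, against 23.5% of all these genes, and 6 did with each array scaled to its 75th percentile, where the lowest value of Tubb3 was in replicate 2. Dcx was the exception, lowest in replicate 2, or in replicate 1 when all its probe sets were averaged. Of the 13 detected probe sets, 12 were lowest in replicate 4. They belong to the same 8 genes and add no independent count, and the share over all probe sets was not computed. The highest signal fell in replicate 3 for 3 genes, in replicate 5 for 3 and in replicate 1 for 2. Over all genes with a mean above the level these shares were 17.8%, 23.8% and 21.2%. The low level of neuronal genes in replicate 4 was already known when these genes were chosen.

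**Figure D3:**
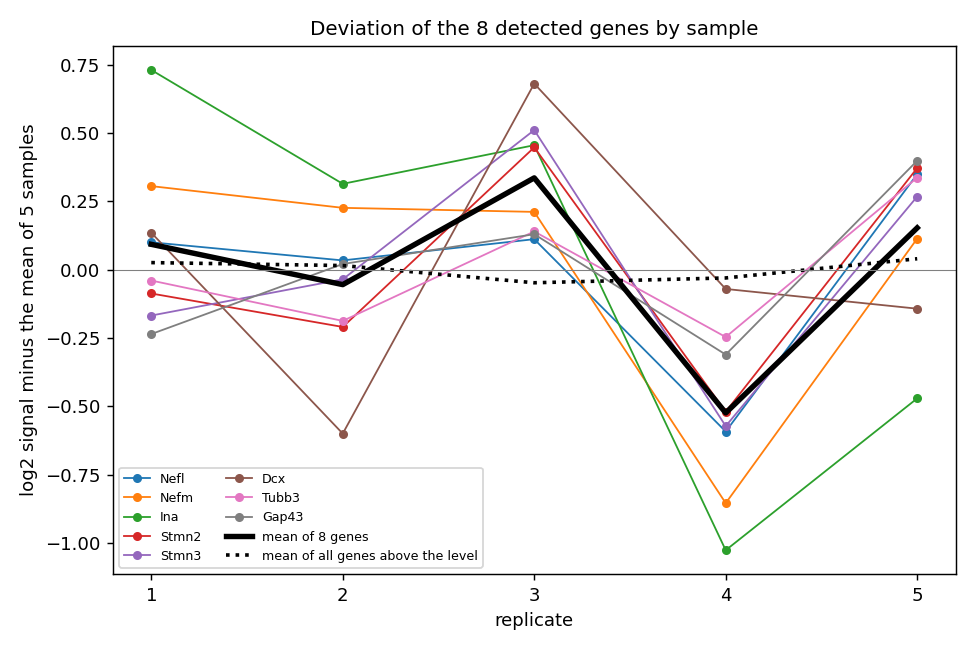
Log2 signal minus the mean of the 5 samples (y axis) for each of the 8 detected genes in replicates 1 to 5 (x axis), with the mean of the 8 genes (thick line) and of 7365 genes above the level (dotted line); lines only join points. The 8 genes averaged -0.52 in replicate 4, with Ina at -1.03 and Nefm at -0.85, and Dcx at -0.07 is the exception.

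The deviations in replicate 4 ran from -1.03 in Ina and -0.85 in Nefm through -0.59 in Nefl, -0.57 in Stmn3 and -0.52 in Stmn2 to -0.31 in Gap43, -0.25 in Tubb3 and -0.07 in Dcx. When each variance was set against limma's trend on signal (F test), 0 of 13 passed at an adjusted p below 0.05, against 0.229% of all probe sets. At an unadjusted p below 0.05, 3 of 13 did, against 5.32%. These were Ina 1418178_at, at 7.03 times the trend variance (limma, adjusted p = 0.471), Dcx 1418139_at (3.88 times) and Stmn2 1423280_at (3.87 times, both adjusted p = 0.880).

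The genes formed closer and looser pairs. Likeness was the root mean square difference between centred log2 signals over the 5 samples, where 0 means identical patterns. Stmn2 and Stmn3 were closest (0.10), followed by Tubb3 and Gap43 (0.13). Nefl lay nearer to Tubb3 (0.19), Gap43 (0.20) and Stmn2 (0.21) than to Ina (0.54), and was 0.21 from Nefm. Ina stood apart from Gap43 most of all (0.69), since it was high in replicate 1 (0.73) and low in replicate 5 (-0.47), where Gap43 deviated by -0.24 and 0.40. The 8 genes spread around their own mean pattern, with an SD over genes of 0.21 to 0.32 by replicate. Among 7357 other genes the median distance from that mean pattern was 0.40. The 5 nearest were Hoxb3 (0.03), Cmtr2 (0.03), Myt1 (0.04), Lypd1 (0.05) and Enc1 (0.06). Myt1, a zinc finger factor of newborn neurons (1177 ± 249), and Enc1, an actin-associated protein first described in the nervous system (538 ± 125), were bright. Hoxb3, the nearest, gave 77.4 ± 15.9, and Cmtr2 (21.8 ± 4.14) and Lypd1 (23.5 ± 4.44) lay near the level. Nearest to Ina were Dner, a transmembrane protein of neurons (0.14), Bsdc1 (0.16) and Bcl9 (0.16).

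Other neuronal genes were set beside them. For this list and those that follow, the shares over all genes were 53.6% above background and 28.8% at the stricter level. Of all genes with a mean above the level, 23.5% were lowest in replicate 4. Of 23 measured genes for RNA-binding proteins and vesicle proteins used by most neurons, 15 were above background (median excess 1.72) and 6 at the stricter level. They included Elavl2 (702 ± 128) and Elavl4 (498 ± 122), which bind and stabilise neuronal messages, and Nnat (1476 ± 195), neuronatin. Of the 15 with a mean above the level, 11 were lowest in replicate 4, and their mean deviations were 0.07, -0.07, 0.33, -0.52 and 0.19 in replicates 1 to 5. Elavl4 deviated by -0.64 in replicate 4, while Elavl2 and Nnat deviated by -0.07 and -0.12, so the low level was not shared by every bright neuronal gene. Among the vesicle genes the SNARE protein gene Snap25, chosen after its values were seen, gave 198 in replicate 4 and 338 to 422 elsewhere.

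Genes that act earlier, in the making of neurons, were measured too. Of 18 neurogenic transcription factors 11 were above background (median excess 2.74), with Sox4 (1453 ± 433), Myt1 and Ebf3 (1134 ± 159) among them. The rest, Neurod2, Neurod6, Insm1, Myt1l, Onecut1, Pou3f1 and Pou3f2, were not. Of the 12 with a mean above the level 6 were lowest in replicate 4, against 23.5% of all such genes. Their mean deviation was -0.31 there and 0.28 in replicate 1. Neural tube progenitor genes gave 8 of 13, and 4 at the stricter level. Among them were Fabp7 (2079 ± 515), a lipid-binding protein of radial glia, Msi1 (408 ± 86.2) and Sox2 (266 ± 84.3). Sox1 (1.19 ± 0.75), Sox3, Pax7, Olig2 and Nkx2-2 were not above background. Of the 10 progenitor genes with a mean above the level 2 were lowest in replicate 4, against 23.5% of all such genes. Their mean deviation there was -0.25.

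Markers of the neuron types that could supply these transcripts were counted in the same way, beside 53.6% of all genes above background and 28.8% at the stricter level. Sensory ganglion genes gave 5 of 12 above background, with Isl1, the neurotrophin receptor Ntrk2 (51.4 ± 9.73) and Six4 (80.7 ± 4.39) among them. At the stricter level only Isl1 remained, which cardiac progenitors also use. Of 9 measured motor neuron genes, 3 passed, none of them at the stricter level. They were Isl2 (31.5 ± 5.57), Nkx6-2 (62.1 ± 14.3) and Tbx20 (107 ± 42.0), which heart progenitors express too, while the motor neuron factor Mnx1 (9.20 ± 4.11) and the cholinergic transporters Slc18a3 and Slc5a7 were not detected. The mean deviations in replicate 4 were -0.23 over the 6 sensory genes and 0.11 over the 4 motor genes with a mean above the level. The sensory mean leaned on Ngfr, which was not above background, at -1.38 with a signal of 10.3 there. Isl1 and Ntrk2 deviated by -0.33 and -0.49, and Ntrk3, Six4 and Runx1 by 0.55, 0.01 and 0.26. The motor genes ran from -0.77 in Lhx3, which was not above background, to 0.72 in Tbx20. Crest and Schwann lineage genes, some of which also mark the glia of ganglia, gave 7 of 9. At the stricter level 2 remained, Pax3 and Sox9 (392 ± 117). The neuregulin receptor Erbb3 (129 ± 25.7) and Sox10 (35.9 ± 11.5) passed only the background level. Foxd3 (18.4 ± 6.51) and Gfra3 (12.9 ± 7.49) were not above background. The 7 genes with a mean above the level deviated by -0.31 in replicate 4.

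Further cytoskeleton and axon genes, some of wide use and some of neurons, were described in the same way. The lists of tubulins, of microtubule-associated proteins and motors, and of growth cone and axon outgrowth genes held 56 measured genes, of which 44 were above background. Of their 47 with a mean above the level 14 were lowest in replicate 4, against 23.5% of all such genes. The 47 genes deviated there by -0.10 ± 0.34 (SD over genes). Several lay low in replicate 4 as the 8 genes did. Chosen after their values were seen, these included the axonal microtubule protein Map1b (-0.63), Dpysl3 (-0.46), which acts in growth cones, and the adhesion molecule Ncam1 (-0.45). Others of the same lists lay high there, among them Mapre3 (0.79), Tubb6 (0.61) and Fez1 (0.53), also chosen after their values were seen. The tubulins gave 8 of 11 above background, with Tuba1a (5982 ± 682), Tubb5 (3799 ± 873) and Tubb2b (1942 ± 230), the microtubule-associated proteins and motors 17 of 21, with Pafah1b1 (847 ± 217), Mapre1 (634 ± 143) and Mapre2 (538 ± 163), and the growth cone genes 19 of 24, with Marcksl1 (3772 ± 807), Basp1 (2257 ± 237) and Marcks (2052 ± 252). The mean deviation of the microtubule-associated list in replicate 4 was -0.002 as deposited and turned to 0.02 after quantile normalization and 0.03 after scaling to the 75th percentile. The difference between these lists and the 8 genes was described and not tested. All 8 measured genes of the REST complex were above background, against 53.6% of all genes, and 4 were at the stricter level. Among these were Kdm1a (1061 ± 222), Hdac2 (787 ± 106) and Hdac1 (359 ± 102). Rest itself gave 150, 131, 95.2, 167 and 120 in replicates 1 to 5 and did not pass the stricter level. A link between REST and the pattern of the 8 genes was not tested.

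**Figure D4:**
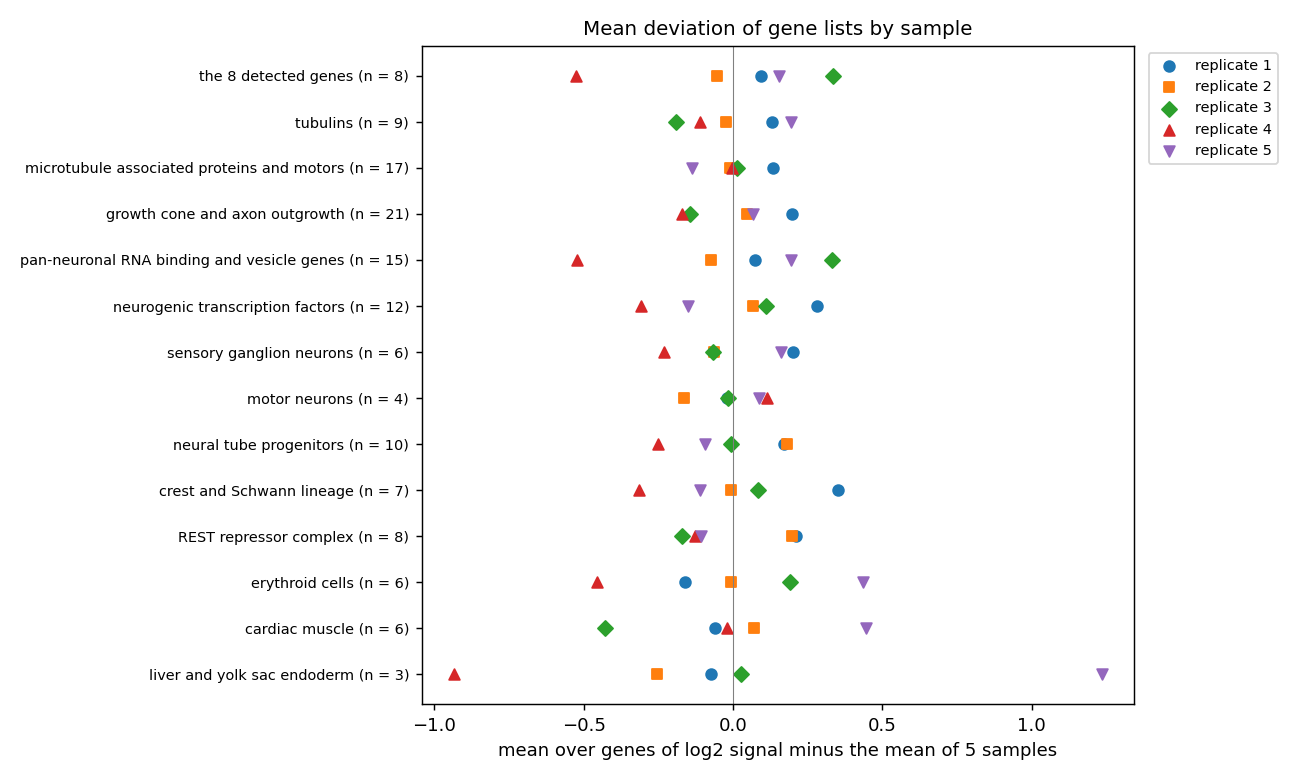
Mean over the genes of each list of log2 signal minus the mean of 5 samples (x axis), 1 marker per replicate; n is the number of genes with a mean above the background level. The 8 detected genes and the RNA-binding and vesicle genes both lie at -0.52 in replicate 4 (upward triangles), erythroid genes at -0.46, and microtubule-associated proteins and motors at -0.002, which the other scalings turn to 0.02 and 0.03.

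Genes of other cell types also differed between samples. Beside them, 53.6% of all genes were above background, and 23.5% of those with a mean above the level were lowest in replicate 4. Erythroid genes, of which 4 of 9 were above background, were lowest in replicate 4 for 5 of their 6 with a mean above the level, with a mean of -0.46 there and 0.43 in replicate 5. The embryonic globin Hba-x gave 490.0 in replicate 4 and 1475 to 2471 elsewhere, and Hbb-y and Hbb-bh1 were lowest there too. Their defining transcription factors Gata1 (23.2 ± 15.4) and Klf1 (20.8 ± 5.38) were not above background. Liver and yolk sac endoderm genes, of which 3 of 9 were above background, deviated by -0.93 in replicate 4 over 3 genes, a value set by Ttr, transthyretin, at -2.80. The other 2 deviated little there, Apoa2 (64.6 ± 72.7) by 0.08 and Vtn (73.1 ± 16.8) by -0.08. Cardiac muscle genes gave 5 of 11, with Actc1 (156 ± 24.1), Myl4 (134 ± 26.3) and Tnnc1 (68.7 ± 10.98), and deviated by -0.43 in replicate 3 and by -0.02 in replicate 4, where scaling to the 75th percentile turned the sign (0.01). Whether these cell types, the sex of the sample or its amplification had a part in the pattern of the neuronal genes was not tested.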

How the data were processed

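The deposited values were linear intensity values, 1 per probe set and array; per the submitters' processing notes the authors used GCOS, whose version the sources used here do not give. The trimmed mean (2% off each end) was 150.1 on every array, so arrays were scaled alike. Of 22690 probe sets, 64 controls were left out. Genes were named from 20380 probe sets with 1 gene (691 had several and 1555 none), with 20351 symbols updated through the RefSeq table of GRCm38.p6. Signals were floored at 1 and taken to log2. Detection was an intercept fit in limma 3.58.1 (R 4.3.3; lmFit and eBayes, trend and robust set) of the log2 difference between signal and the array's level, one-sided, adjusted by Benjamini-Hochberg over 22626 probe sets and called below 0.05; a gene was above background if any probe set was. The level used 220 probe sets of 181 genes; the wider pattern added 28 of 9 genes. Variance was tested over the 12672 probe sets with a mean above the level. Both steps were also run on simulated data, with independent values and 1 level shared by all arrays. The real arrays differ in level and their genes move together, so no support is drawn from that run. Genes and lists were chosen with earlier results of these data known. Named were all 10 genes and, per other list, the 3 detected genes with the highest excess. The nearest genes by pattern were named too (5 for the mean, 3 for the most variable gene). Others, such as Rest, Nefh, Des, Gfap, Stmn4, Snap25, Gata1, Klf1, Mnx1, Slc18a3, Slc5a7 and Nkx2-5, were chosen after their values were seen. So were Ngfr, Lhx3, Ntrk3, Runx1, Sox10, Foxd3, Gfra3, Sox1, Sox3, Pax7, Olig2 and Nkx2-2. Depth does not apply to arrays; 5 samples limit the precision.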

Additional observations from a re-analysis of the deposited data

Results flagged for a closer look

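An outlying sample was looked for in 81 values, by the gap to the nearest sample over the whole range, with 0.71 as the 95% critical ratio for 5 samples; chance alone marks about 1 in 20. It was found in 6. Nefm 1422520_at was the only detected probe set of the axon genes among them, with a ratio of 0.834 for its low signal in replicate 4. The others were Nes, low in replicate 5 (0.755), Tuba1a, high in replicate 5 (0.799), Elavl2, high in replicate 3 (0.746), Six4, low in replicate 2 (0.774), and Ttr, low in replicate 4 (0.740).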

How the results depend on the processing

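The detection of the 10 genes did not depend on the processing alternatives that were run. In all 120 recomputed gene results (12 alternatives for each gene) the call was the same, with 8 genes above background each time, and 11 to 13 of the member probe sets passed. The p-values themselves moved with the variance model and the floor. At the same excess of 5.28 the adjusted p of Nefl (limma) was 4.64e-21 as reported. It was 1.12e-06 without trend or robust options and 9.76e-252 with signals floored at 16. Over all genes the count moved from 6644 to 3571 with the wider background pattern, so the background share moves more than the members' count. The number of the 8 genes lowest in replicate 4 was 7, or 6 with 75th percentile scaling, and their mean deviation there ran from -0.54 to -0.44, with -0.44 without replicate 3. Without replicate 4 neither value exists. The count of 0 member probe sets varying beyond the trend held throughout, while over all probe sets 29 passed as reported, 10 without replicate 4, 41 without replicate 2, 18 without replicate 5, 19 without replicate 3, 50 with signals floored at 16, 10 with the wider pattern, 19 with plain probe sets and 0 without trend or robust options. No paired analysis was possible because there is 1 group. Signals near the level carry little information, which limits Prph, Map2 and the weaker Dcx and Ina probe sets.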
